A study of Mus musculus with 2 samples.

Results

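Replication-dependent histone genes were described here by class, chromosomal cluster, transcript model and quantification. Members were the genes whose symbol is formed of Hist, a cluster number, the letter h, a class (1, 2a, 2b, 3 or 4) and an optional lower-case gene letter. This gave 65 of the 55536 annotated genes: 6 of class H1, 18 of H2A, 18 of H2B, 10 of H3 and 13 of H4. The annotation lists 63 of them as protein-coding, and Hist1h2aj and Hist1h2al as pseudogenes. By cluster, 56 belong to Hist1 on chromosome 13, 6 to Hist2 on chromosome 3, 2 to Hist3 on chromosome 11 and 1, Hist4h4, stands alone on chromosome 6.

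RNA came from bone marrow derived macrophages of C57BL/6J mice that had been given Lipid A at 100 ng/ml for 10 min. Lipid A is the part of bacterial lipopolysaccharide that Toll-like receptor 4 recognises. The fraction is called nucleoplasmic in one label, nuclear or nucleus in others, and ribosomal RNA was depleted rather than poly(A) RNA selected. The group has 2 libraries, labelled biological replicates 1 and 2, made from 1 µg and 500 ng of RNA. Both carry the same donor identifier with separate biosamples, so the spread between them may be technical in part, and sex and age were not collected. Unstimulated cells, other times and other fractions were not analysed here, so no level below measures a response to Lipid A. Values are given for replicate 1 and then replicate 2, or as mean ± SD with n = 2, and 1 library on each side allows no test between them.

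Core histones H2A, H2B, H3 and H4 form the protein spool of the nucleosome, and linker histone H1 binds the DNA that enters and leaves it. The genes described here lie in clusters, lack introns for the most part, and are transcribed mainly in S phase, when new DNA has to be packaged. Their mRNAs end in a conserved stem-loop in place of a poly(A) tail: the stem-loop binding protein SLBP and the U7 small nuclear ribonucleoprotein direct cleavage just after it. RNA that is read through this site can instead be cleaved and polyadenylated further on.

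The stem-loop is shown first, because it defines the family's RNA ends and its core differed by class. A search of the annotated transcripts with the histone stem-loop pattern of 16 bases found it in 40 of the 65 members, against 77 of 21901 protein-coding genes (0.352%). The 40 members are among these 77 genes. The 29 matches outside class H4 used 3 cores and the 11 in H4 used 3 others, with 0 cores in common. Each site below is 26 bases from the 3′UTR of the sense strand, and the 16 capitals mark the core. The 7 were chosen so that each core is shown at least once.

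Hist1h1c: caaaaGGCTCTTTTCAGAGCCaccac
Hist3h2a: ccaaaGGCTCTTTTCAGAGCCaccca
Hist1h3e: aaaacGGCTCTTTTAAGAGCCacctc
Hist2h2ac: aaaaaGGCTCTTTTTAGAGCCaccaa
Hist1h4h: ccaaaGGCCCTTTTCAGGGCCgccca
Hist1h4i: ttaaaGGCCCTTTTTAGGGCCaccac
Hist1h4b: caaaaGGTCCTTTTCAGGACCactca

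In mm10 these sites lie at chr13:23739507-23739532 on the plus strand for Hist1h1c, chr11:58955167-58955192 on the plus strand for Hist3h2a, and chr13:23561898-23561923 on the minus strand for Hist1h3e. The site of Hist2h2ac is at chr3:96220413-96220438 on the minus strand. Among the H4 genes, the sites are at chr13:23531453-23531478 on the plus strand for Hist1h4h, chr13:22040961-22040986 on the minus strand for Hist1h4i and chr13:23757361-23757386 on the plus strand for Hist1h4b. The first core, of Hist1h1c and Hist3h2a, was the most common, with 22 genes of classes H1, H2A, H2B and H3. The core of Hist1h4h was found in 7 H4 genes, and those of Hist1h4i and Hist1h4b in 2 each. Over all matches, the core began 21 to 54 bases after the stop codon.

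Promoters also differed by class. RefSeq promoter sequences (GRCm38.p6) matched 57 of the 65 members, and 4 motifs known from histone promoters were searched in the 250 bases before each start, with 1 more added after the sequences were seen. CCAAT on either strand, the site of the factor NF-Y, was present in all 45 matched promoters of H1, H2A, H2B and H3 genes and in 3 of 12 H4 promoters, against 33.8% of 32817 promoters in all. The octamer ATTTGCAT on either strand, bound by the POU factor Oct-1, was found in 7 of 15 H2A and 6 of 16 H2B promoters, in 0 of the other 3 classes, and in 1.60% of all promoters. AAACACA on either strand, the H1 box, was found in 5 of 6 H1 promoters, 2 H2A and 2 H2B promoters, and 6.25% of all. TATAAA on the sense strand was found in 24 of 57 promoters against 7.60% of all, and it began 24 to 40 bases before the start in 12 of them, against 1.94% of all. Those 12 were 4 of 6 H1, 4 of 15 H2A, 1 of 16 H2B, 2 of 8 H3 and 1 of 12 H4 promoters. GGTCCG on either strand, from the H4 element that the factor HINFP binds, was the motif added later. It was found in 9 of 12 H4 promoters, 2 of 45 in the other classes and 6.72% of all. Several of the H2A and H2B windows cover the same stretch from opposite sides, so their matches are not independent.

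The 150 bases before the start are printed for 1 gene of each class, with matches to these 5 motifs in capitals, to show how the motifs are set out in these genes.

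Hist1h1c: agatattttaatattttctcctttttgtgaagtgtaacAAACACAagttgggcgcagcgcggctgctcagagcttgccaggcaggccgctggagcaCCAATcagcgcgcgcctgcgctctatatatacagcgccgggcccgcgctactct
Hist3h2a: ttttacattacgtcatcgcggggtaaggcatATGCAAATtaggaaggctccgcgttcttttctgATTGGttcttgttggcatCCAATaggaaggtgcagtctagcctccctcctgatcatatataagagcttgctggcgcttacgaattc
Hist1h2bb: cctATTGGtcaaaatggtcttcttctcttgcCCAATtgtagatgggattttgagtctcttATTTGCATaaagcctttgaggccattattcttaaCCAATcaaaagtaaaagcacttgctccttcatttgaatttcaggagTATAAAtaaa
Hist1h3d: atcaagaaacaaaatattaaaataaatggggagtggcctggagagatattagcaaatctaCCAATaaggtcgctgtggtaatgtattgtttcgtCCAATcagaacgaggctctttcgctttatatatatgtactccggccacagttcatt
Hist1h4m: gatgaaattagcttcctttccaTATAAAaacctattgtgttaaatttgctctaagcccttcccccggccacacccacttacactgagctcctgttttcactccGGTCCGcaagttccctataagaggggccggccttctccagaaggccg

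These windows lie on the plus strand at chr13:23738657-23738806 for Hist1h1c, chr11:58954535-58954684 for Hist3h2a, chr13:23746584-23746733 for Hist1h2bb, chr13:23575613-23575762 for Hist1h3d and chr13:21811596-21811745 for Hist1h4m. Hist1h1c carried the H1 box well upstream of a CCAAT box. In Hist1h2bb the octamer stood between CCAAT boxes, in Hist3h2a it stood upstream of them, and the H4 gene had the HINFP element and no CCAAT in this window. TATAAA began at position -128 in Hist1h4m and -10 in Hist1h2bb, both outside 24 to 40 bases before the start, and the other windows held none. Hist1h4m and its neighbour Hist1h4n shared an identical run of 149 bases in this window, while Hist1h4m and Hist1h4i shared a longest run of 38. A match is a description of the letters, and factor binding was not measured.

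Levels are given in TPM, which divides estimated counts by effective transcript length and scales each library to a common total. A gene was called detected at 1 TPM or more in both libraries. By that limit 45 of the 63 protein-coding members were detected, against 46.1% of 21951 protein-coding genes, and neither pseudogene was. Detection was most complete in H4 (12 of 13) and H1 (5 of 6), intermediate in H3 (7 of 10) and lowest in H2B (11 of 18) and H2A (10 of 18). Of the rest, 15 were under 1 TPM in both libraries and 5 in 1 of them. Together the 65 genes made up 0.0573% of all TPM in replicate 1 and 0.0330% in replicate 2, from 9762 and 3631 expected counts.

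H4 was the class with the highest summed level, at 229.8 and 139.7 TPM, or 40.1% and 42.3% of the members' TPM. H2A followed at 128.6 and 73.1 TPM, and H3 was lowest at 46.3 and 33.1 TPM. The lower H4 library stood above the higher H2A library, so these classes did not overlap among the members. With the coding H2A genes that the naming rule leaves out, the H2A sum was 218.5 and 103.0 TPM, and the ranges overlapped. H1 (90.8 and 41.1 TPM) and H2B (78.0 and 42.9 TPM) overlapped, and their order differed between the libraries. Per gene, the median member stood at 12.1 ± 3.97 TPM in H4, 5.92 ± 2.54 in H1, 3.48 ± 1.15 in H3, 2.74 ± 0.937 in H2B and 2.70 ± 1.52 in H2A. The H4 median was thus above those of the other classes, while the medians of H3, H2B and H2A differed by less than their SDs. The plot of members by class shows each gene's level in both libraries.

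**Figure D1:**
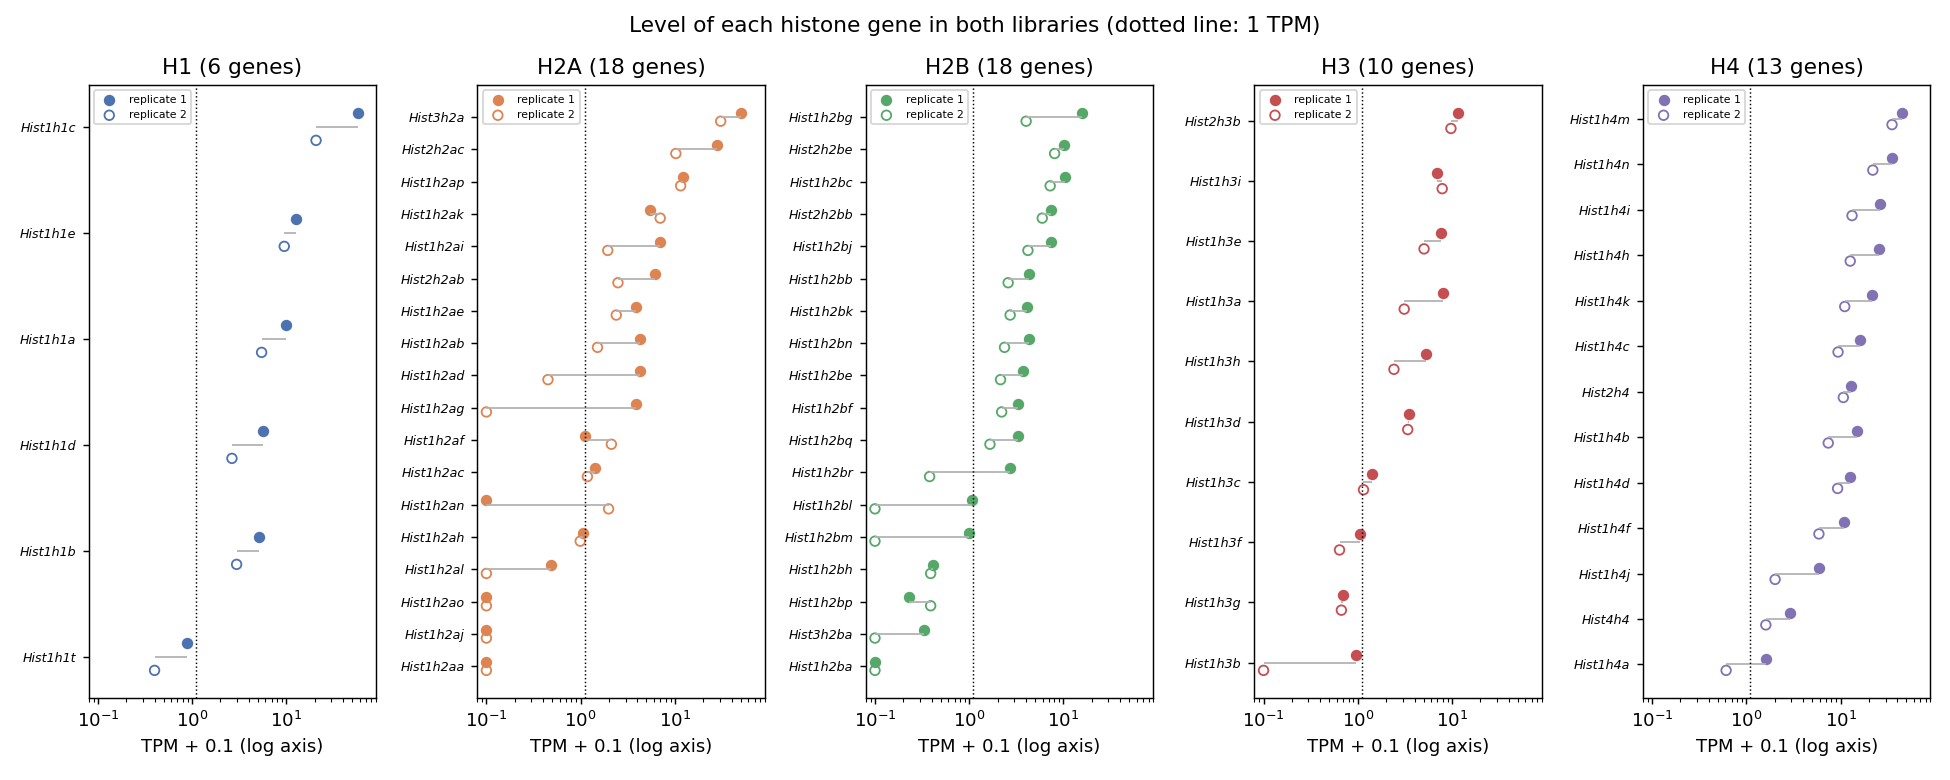
Level of each of the 65 histone genes, in a panel for each class with genes sorted by mean. The horizontal axis is TPM + 0.1 on a log scale; filled points are replicate 1, open points replicate 2, and the dotted line marks 1 TPM. All H4 genes but Hist1h4a lie right of the line in both libraries, whereas the lower parts of the H2A and H2B panels lie left of it.

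The order of the classes depended on the scale. On expected counts, which are not divided by length, H1 held 33.5% and 26.6% of the members' counts and H4 20.9% and 23.6%, so that H1 led in replicate 1 and H2A in replicate 2. H1 models had a median of 1236 bases and H4 models 539. The deposits also hold a second estimate of the same libraries. H3 was lowest on both scales and in both estimates. The bar plot of class sums sets the 3 measures side by side.

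**Figure D2:**
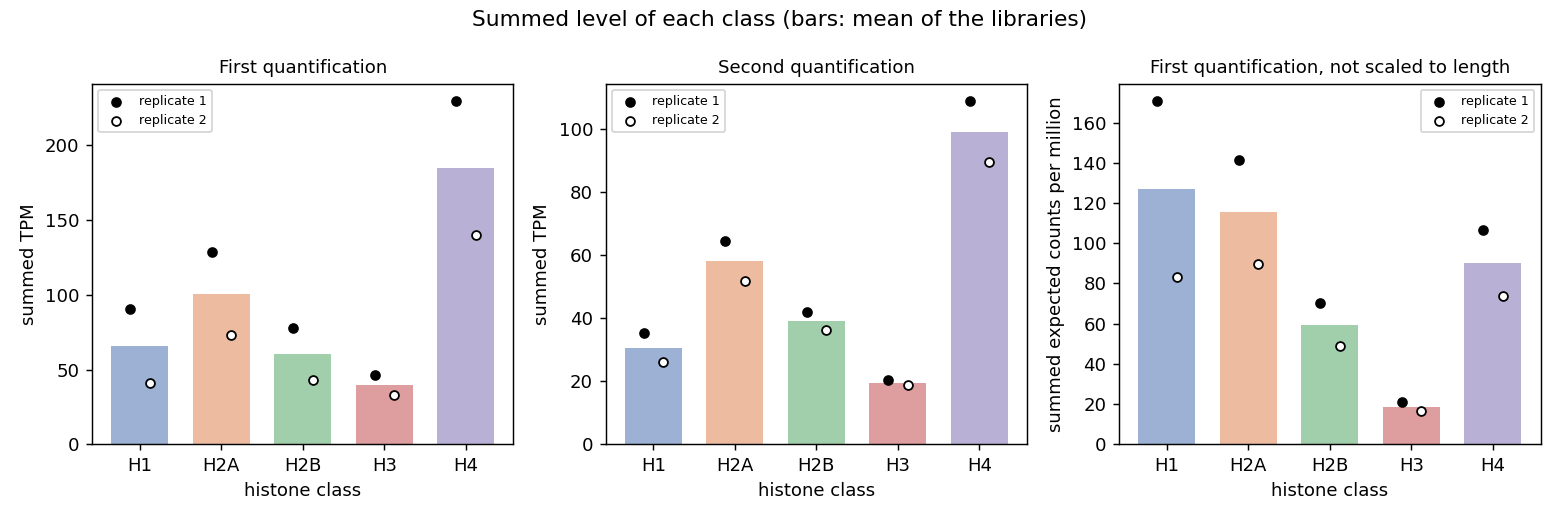
Summed level of the members of each class in TPM of the first quantification (left), TPM of the second (middle) and expected counts scaled to CPM (right). Bars start at 0 and give the mean, filled and open points are replicates 1 and 2. H4 is highest in both TPM panels, at 184.7 and 99.2 TPM on average, and H1 has the tallest bar on the count scale.

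Among linker histones, Hist1h1c was by far the most abundant, with 56.95 and 20.59 TPM, or 62.7% and 50.1% of the class. It encodes one of the somatic H1 subtypes. Hist1h1e, another widely expressed somatic subtype, stood at 12.62 and 9.41 TPM. Hist1h1a was at 9.87 and 5.37 TPM and Hist1h1d at 5.55 and 2.55. In each of these 4 replicate 1 was the higher library, and Hist1h1c stood above the other H1 genes in both. Hist1h1t, the testis-specific H1, was the lowest member of the class at 0.78 and 0.30 TPM, from 12 and 3 counts, although every 31-base window of its transcript is found in no other gene.

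The H2A class rested on a few genes outside Hist1. Hist3h2a had 50.59 and 30.52 TPM, with a mean of 40.6 ± 14.2 TPM close to those of Hist1h4m (39.7 ± 6.54) and Hist1h1c (38.8 ± 25.7), and held 39.4% and 41.7% of the class. Its exon overlaps that of Trim17 on the same strand, and Trim17 stood at 3.94 and 2.97 TPM. How reads were divided between these genes was not tested. Hist2h2ac followed at 27.96 and 10.14 TPM, and Hist1h2ap came next at 12.19 and 11.42. Hist1h2ak was below these at 5.32 and 6.89 TPM. The lower library of Hist3h2a stood above the higher of Hist2h2ac, so these did not overlap, whereas Hist2h2ac and Hist1h2ap did.

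Without Hist3h2a and the other member that overlaps a gene on the same strand, Hist1h2ac, the class sum fell to 76.7 and 41.5 TPM. Hist2h2ab stood at 6.13 and 2.39 TPM. The lowest H2A member with any counts was the pseudogene Hist1h2al, at 0.39 and 0 TPM. On the opposite strand of 17 H2A genes the annotation places a small miRNA gene, and all 17 of these were at 0 expected counts in both libraries. In the second estimate 1 of them, Gm44454, had 2.22 TPM in replicate 2.

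No H2B gene led its class in the same way. Hist1h2bg was highest in replicate 1 at 15.60 TPM but stood at 3.92 TPM in replicate 2, and the libraries were 1.75 apart on the log2(TPM + 1) scale. Hist2h2be was at 10.09 and 7.96 TPM and Hist1h2bc at 10.40 and 7.13. Hist2h2bb was at 7.28 and 5.86 TPM, but none of its 31-base windows is unique, and its exon is overlapped by the long noncoding gene Gm42743 on the same strand and by Gm20628 on the other. The range of Hist1h2bg covered those of the other 3 in part or in full, so it could not be ranked against them. The values of Hist2h2be stood above those of Hist2h2bb in both libraries without overlap, but their deposited intervals did overlap. These ran from 8.79 to 10.4 and 6.52 to 8.25 TPM for Hist2h2be. For Hist2h2bb they ran from 3.91 to 10.55 and 2.34 to 9.51 TPM. Hist3h2ba, at 0.23 and 0 TPM from 2 and 0 counts, was the lowest H2B member with counts, and a neighbour of Hist3h2a, the highest H2A member.

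Of the H3 genes Hist2h3b was highest at 11.61 and 9.64 TPM. All its windows recur in another gene, among them Gm20628 on the opposite strand, which stood at 2.64 and 2.14 TPM. Hist1h3i was at 6.84 and 7.77 TPM, Hist1h3e at 7.48 and 4.95, and Hist1h3a at 8.02 and 3.01. These last 3 overlapped. Hist1h3b was lowest, at 0.86 and 0 TPM.

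The H4 sum did not rest on 1 gene alone, though levels ranged widely within the class. Hist1h4m stood at 44.30 and 35.05 TPM, Hist1h4n at 34.63 and 21.88, Hist1h4i at 26.37 and 13.13, and Hist1h4h at 25.65 and 12.56. The ranges of Hist1h4m and Hist1h4n did not overlap in this estimate, but 91.7% of the windows of Hist1h4m are shared with Hist1h4n. In the second estimate they did overlap, at 14.8 and 17.5 TPM for Hist1h4m and 16.1 and 8.26 for Hist1h4n, with Hist1h4n higher in replicate 1. In the first, the ranges of Hist1h4i and Hist1h4h covered each other almost in full. The first 4 genes held 57.0% and 59.1% of the class. Hist2h4 stood at 12.93 and 10.59 TPM and the lone Hist4h4 at 2.78 and 1.51. Hist1h4a was lowest, at 1.5 and 0.51 TPM.

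Members of a class can encode the same protein, so levels were also summed by protein, computed from the annotated coding sequences. All 13 H4 genes encode 1 protein of 102 residues, from 12 different coding sequences. The 10 H3 genes encode 2 proteins that differ by S96C, counted from 1 at the residue after the initiator methionine. The 6 genes with the first form (Hist1h3b, Hist1h3c, Hist1h3d, Hist1h3e, Hist1h3f and Hist2h3b) summed to 25.64 and 19.47 TPM. The 4 with the second (Hist1h3a, Hist1h3g, Hist1h3h and Hist1h3i) summed to 20.61 and 13.67 TPM. These sums overlapped between the forms, with the first higher in each library.

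The H2A genes were more diverse, with 8 proteins from 16 coding genes. The most common protein, shared by 9 genes, summed to 36.19 and 20.27 TPM, below the 1 gene Hist3h2a, whose protein differs from it by T16S. Hist1h2af and Hist1h2ak each differ from it by 1 residue, A126P and S122T, and Hist2h2ab by 9. For H2B, 18 genes encode 11 proteins. The 6 genes of the most common form summed to 21.39 and 10.32 TPM, and the 3 genes of the S75G form (Hist1h2bc, Hist1h2be and Hist1h2bg) to 29.58 and 13.10. The S75G form was the higher in each library, but the ranges overlapped. The 6 H1 genes encode 6 different proteins.

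By cluster, Hist1 held 443.8 and 251.4 TPM, or 77.4% and 76.2% of the members' TPM, with 37 of 56 genes detected. Hist2 held 76.0 and 46.6 TPM and all 6 of its genes were detected. Hist3 held 50.8 and 30.5 TPM, nearly all from Hist3h2a. The median member stood at 9.83 ± 1.45 TPM in Hist2 and 3.17 ± 1.39 TPM in Hist1, a gap larger than either SD. All 6 Hist2 members were therefore detected, while most of the undetected members lie in Hist1. Of the 6, Hist2h2bb and Hist2h3b have no unique windows, so their levels can depend on how shared reads were divided. Matches on either strand counted as shared, and the 1 gene whose exon overlaps that of Hist2h3b, Gm20628, lies on the opposite strand. How far this matters turns on the strand setting, which is not given. Hist2h3c1, which the naming rule leaves out, was at 0 and 0.01 TPM.

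Along chromosome 13 the Hist1 genes fall into groups separated by more than 100000 bp. The largest, with 29 genes at chr13:23531050-23764406, summed to 241.5 and 121.4 TPM. The next, with 19 genes at chr13:21715763-21837530, summed to 159.6 and 109.2 TPM, and 5 genes at chr13:22035164-22043676 to 42.3 and 20.7 TPM. A group of 2 genes, Hist1h2aa and Hist1h2ba, was at 0 throughout. Genes with high and low values stood side by side: the testis gene Hist1h1t (0.78 and 0.30 TPM) lies between Hist1h2bc (10.40 and 7.13 TPM) and Hist1h4c (15.97 and 9.30 TPM).

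**Figure D3:**
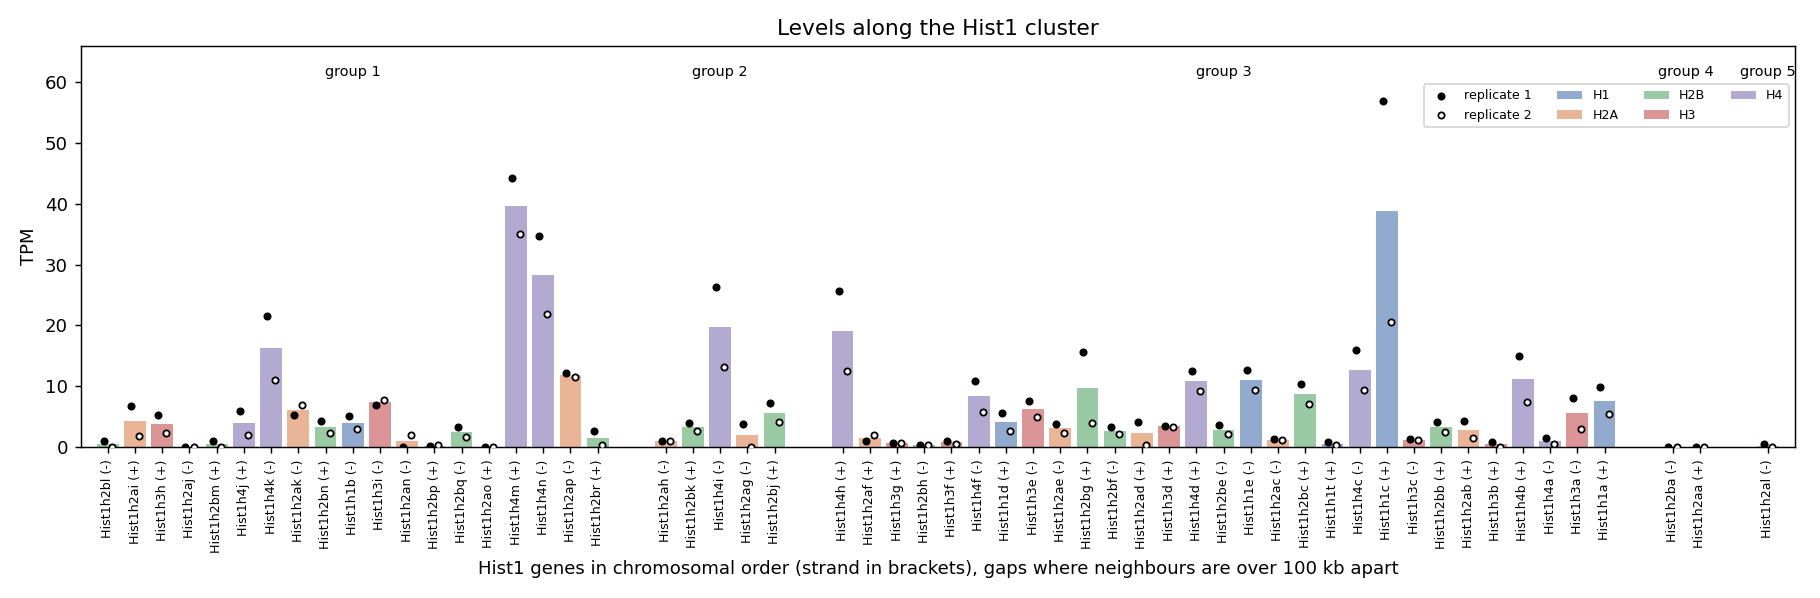
TPM of the 56 Hist1 genes in chromosomal order, with gaps between groups of genes and the strand in brackets. Bars give the mean and are coloured by class, filled and open points are replicates 1 and 2. Tall bars of H4 genes are spread over the first 3 groups, beside the tall bar of Hist1h1c in group 3, and groups 4 and 5 stay at or near 0.

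Genes that start close together on opposite strands often stood at different levels, and the output of their promoters was not measured. The annotation holds 13 divergent pairs of an H2A and an H2B gene whose starts lie 176 to 306 bp apart, 26 genes in all. The H2A gene was the higher in both libraries in 4 pairs, the H2B gene in 5, and neither in 4. Among the 5 is Hist1h2bq (3.21 and 1.56 TPM) beside Hist1h2ao at 0, a call that did not hold in the second estimate, where Hist1h2ao was the higher in replicate 2 (2.18 against 0.748 TPM). Both genes have few unique windows. Hist1h2ap stood at 12.19 and 11.42 TPM beside Hist1h2br at 2.58 and 0.28. In the opposite direction Hist1h2bc stood at 10.40 and 7.13 TPM beside Hist1h2ac at 1.31 and 1.08. In both of these pairs the ranges of the partners did not overlap. Hist1h2ap and Hist1h2br also have few unique windows, 6.64% and 10.5%, so their values can depend on how reads of copies were divided. In the second estimate Hist1h2ap stood at 4.27 and 4.21 TPM and Hist1h2br at 1.01 and 1.00.

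Members with no counts were few and were all in classes H2A and H2B. Hist1h2aa, Hist1h2ba, Hist1h2ao and the pseudogene Hist1h2aj had 0 expected counts in both libraries, that is 3 of the 63 protein-coding members, against 33.1% of protein-coding genes. Hist1h2aa and Hist1h2ba are the testis-specific H2A and H2B and form a divergent pair. With an upper limit of 3 counts for a count of 0, which covers counting error only, the limit was 0.807 and 1.17 TPM for Hist1h2aa and 0.836 and 1.20 TPM for Hist1h2ba. For Hist1h2aj it was 1.03 and 1.47 TPM and for Hist1h2ao 0.527 and 0.777 TPM. These limits count reads that would have been assigned to the gene, and for Hist1h2aj and Hist1h2ao, with 6.52% and 6.22% unique windows, reads could have been assigned to a copy. Their deposited intervals reached higher, to 2.36 and 1.93 TPM for Hist1h2aj and 1.94 and 3.48 TPM for Hist1h2ao, so for both the limits do not bound the level. Some of the limits lie above 1 TPM, so a level near the detection limit could not be seen at this depth. A further 7 members were at 0 in 1 library only. Among them Hist1h2ag was at 3.77 TPM from 21.9 counts in replicate 1 and at 0 in replicate 2, where the deposited interval reached 1.13 TPM.

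Transcript models end in different places relative to the stem-loop, and this sets how far reads can be assigned. In 20 members an annotated model ends within 100 bases after the stem-loop. The models of Hist1h4m and Hist1h2ap end 3 bases after it and that of Hist1h2ab 11, and the other 17 end 23 to 74 bases after it. In 20 others every matching model runs on for longer, up to 4884 bases for Hist1h1d. In 17 no model held the pattern and at least 1 model stops at the stop codon or within 2 bases of it. For 15 of these that is the only model, while Hist1h2bq and Hist1h2br also have longer ones. The remaining 8 had no match and no such model. The 20 genes with long models held 74.9% and 71.4% of the members' counts but 41.8% and 38.6% of their TPM. The 20 with short ends held 11.2% of the counts in each library and 37.0% and 36.8% of the TPM. Counts were therefore concentrated on genes with long models, whereas TPM was divided more evenly between these groups. Whether reads lay before or after the stem-loop was not analysed here, because the tables give 1 value for each transcript.

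Both libraries received the same treatment, so their comparison describes the spread between replicates. On log2(TPM + 1) over genes whose mean reached 1 TPM, replicate 1 minus replicate 2 had a median of 0.67 over 49 members and 0.10 over 13951 genes. Relative to the median gene, the members stood 0.57 higher in replicate 1, with a range of -0.68 to 2.15. In the second estimate the medians were 0.22 for the members and -0.37 for all genes. Replicate 1 was the higher library for 46 of the 49, against 63% of all genes compared. For 11 of the 49 it was more than 2-fold higher, against 3.51%, and 0 members were more than 2-fold higher in replicate 2, against 1.3%. The deposited TPM interval of replicate 1 lay wholly above that of replicate 2 for 20 members, against 16.8% of all genes, and the reverse held for 0 members, against 4.22%.

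The shift was not equal over the classes. The median difference was 0.89 in H2A, 0.77 in H1, 0.73 in H4, 0.58 in H2B and 0.25 in H3, and the classes overlapped widely, as the plot of differences by class shows. All genes compared were higher in replicate 1 in H4 (13), H2B (12) and H1 (5), as were 10 of 12 in H2A and 6 of 7 in H3. The members farthest toward replicate 1 were Hist1h2ag (2.25), Hist1h2ad (1.93; 4.14 and 0.35 TPM), Hist1h2bg (1.75) and Hist1h2br (1.48). The difference of Hist1h2br did not hold in the second estimate, at 1.01 and 1.00 TPM. Its deposited intervals overlapped, at 0.91 to 6.45 and 0.33 to 3.41 TPM, and 89.5% of its windows are shared with Hist1h2bq. Toward replicate 2 stood Hist1h2af (-0.58; 1.02 and 2.02 TPM), Hist1h2ak (-0.32) and Hist1h3i (-0.16), followed by Hist1h3d near 0 (3.41 and 3.29 TPM). Hist1h2af had only 3.98 and 5.45 counts. In abundant genes the difference was better measured: for Hist1h1c the deposited intervals ran from 51.5 to 56.7 TPM in replicate 1 and from 17.2 to 20.95 TPM in replicate 2.

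**Figure D4:**
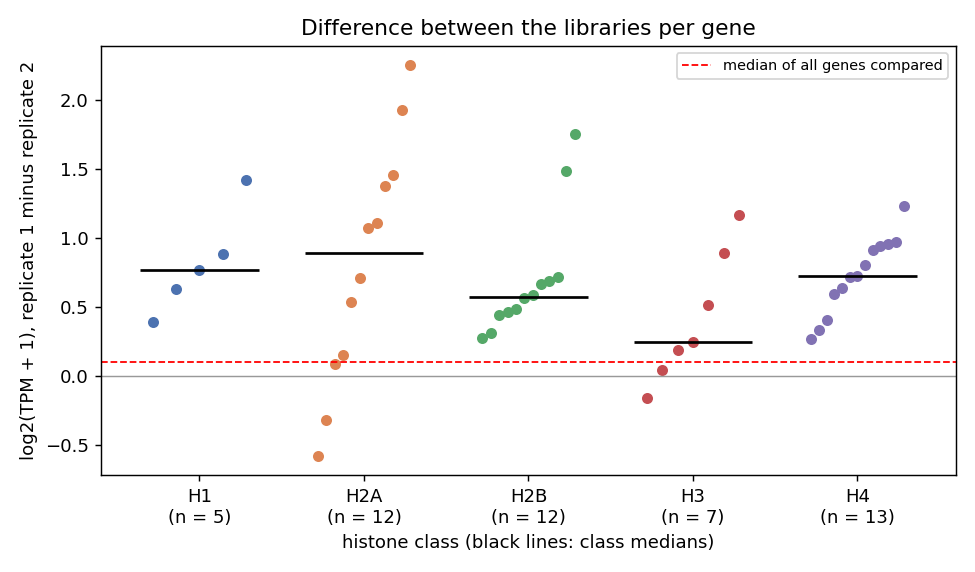
Difference between the libraries on log2(TPM + 1), replicate 1 minus replicate 2, for the 49 members with a mean of at least 1 TPM, by class. Each point is a gene, black lines are class medians and the dashed line is the median of all 13951 genes compared. Of the 49 points, 3 lie below 0, in H2A and H3.

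Other gene groups moved between the libraries as well. Relative to the median gene, macrophage markers stood 0.51 higher in replicate 1 (7 of 8 genes) and replication-independent histone variants 0.46 higher (9 of 10). S phase and proliferation genes stood at -0.10, with 10 of 20 higher in replicate 1, and factors of histone mRNA processing and decay at 0.04, with 14 of 22. RNA input and depth also differed between the libraries, which held 19153465 and 11622346 expected counts on annotated genes. The part of any of these in the members' difference was not tested.

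The second estimate of these libraries was given per transcript in a table of another format and summed here per gene. It gave the members 271.1 and 222.1 TPM in all, against 573.4 and 330.0 in the first. On log2(mean TPM + 1), second minus first, the median difference was -0.65 over 50 members and -0.13 over 19574 genes. On this scale 5 members were more than 2-fold lower in the second, against 2.08% of all genes. More than 2-fold higher was 1 member, against 27.4%. H4 was again first at 109.0 and 89.5 TPM, or 40.2% and 40.3% of the members' TPM, and H3 last at 20.3 and 18.7 TPM. H1 and H2B changed places in replicate 1, with 35.4 TPM for H1 and 42.0 for H2B. The H4 share was close in both estimates, while the summed level of all members differed more between the estimates in replicate 1 than in replicate 2. All genes shifted the same way: second minus first, their median was -0.38 in replicate 1 and 0.12 in replicate 2. The members' medians were -0.88 and -0.44. Relative to the median gene the members stood at -0.50 in replicate 1 and -0.56 in replicate 2, so no farther apart in replicate 1.

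On log2(mean TPM + 1), the 5 members more than 2-fold lower in the second estimate were Hist1h2ap, Hist1h4m, Hist1h4n, Hist1h1c and Hist1h3a. The 1 more than 2-fold higher was Hist1h2ao. Without the added 1, further members were more than 2-fold lower, among them Hist3h2a, with means of 40.6 TPM in the first and 19.8 in the second. Farthest lower in the second were Hist1h2ap (-1.29; 4.27 and 4.21 TPM), Hist1h4m (-1.24; 14.8 and 17.5 TPM), Hist1h4n (-1.15; 16.1 and 8.26 TPM) and Hist1h1c (-1.10; 21.6 and 13.4 TPM). Windows found in no other gene made up 88.6% of Hist1h1c, 12.5% of Hist1h4n, 8.33% of Hist1h4m and 6.64% of Hist1h2ap. Only Hist1h1c among these has mostly unique sequence, and the part of sequence sharing in the differences was not tested. Farthest higher were Hist1h2ao (1.46), Hist2h2ab (0.28; 6.08 and 4.74 TPM) and Hist1h4k (0.22; 22.7 and 15.5 TPM), followed by Hist4h4 (-0.13). Hist1h2ao was the one gene at 0 in the first estimate and at 1 TPM or more in the second, with 1.33 and 2.18 TPM. It shares 93.8% of its windows with Hist1h2ap. The sum of both genes was 12.2 and 11.4 TPM in the first estimate, all of it on Hist1h2ap, and 5.60 and 6.40 TPM in the second.

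**Figure D5:**
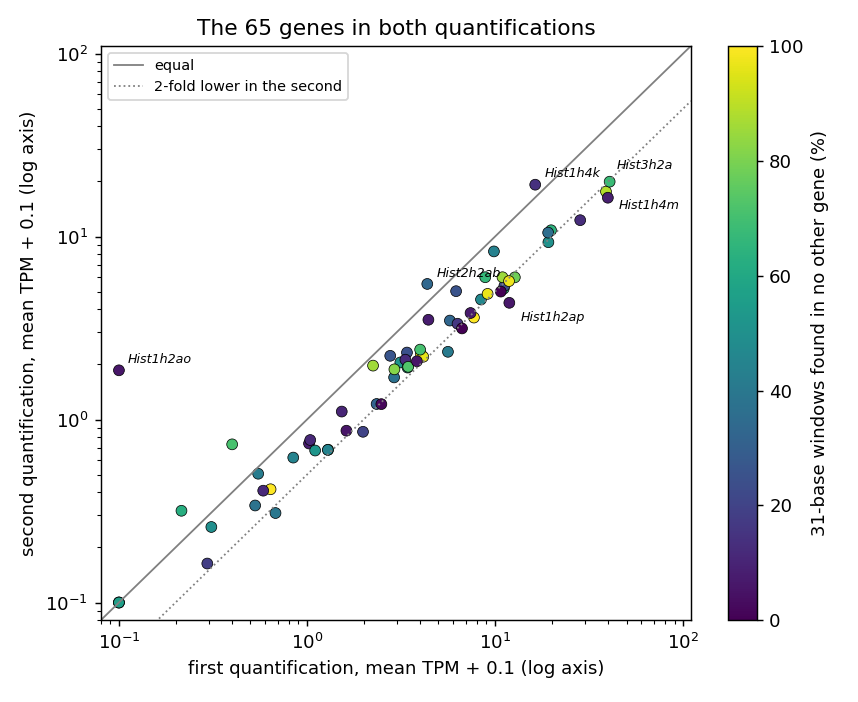
Mean TPM + 0.1 of each of the 65 genes in the first (horizontal) and second (vertical) quantification, both on log axes, coloured by the percentage of 31-base windows found in no other gene. The solid line marks equal values and the dotted line a 2-fold lower second value. Most genes lie between the lines or near the dotted line, and Hist1h2ao stands at the left edge above the genes at 0 in both.

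Such sharing was common in the family. The median member had 41.1% of its 31-base windows in no other annotated gene, with 96.2% in H1 and 22.9% in H2A. For 12 members it was under 10%, and for 2, Hist2h2bb and Hist2h3b, it was 0. These 12 held 99.4 and 78.4 TPM, or 17.3% and 23.7% of the members' TPM in the first estimate. Their levels can depend on how reads that match several genes were divided, which was done by the authors and is not given in the sources used here. A match on either strand counted as shared, also with the opposite-strand miRNA genes of H2A. For strand-specific reads some of these unique shares could be higher. Hist1h1c, Hist1h4d (85.3%; 12.50 and 9.20 TPM), Hist2h4 (97.4%) and Hist2h2be (97.2%) are examples of detected members with mostly unique sequence.

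The machinery that makes and turns over these mRNAs was largely detected. Of 24 factors of histone transcription, 3′ processing and decay, 21 reached 1 TPM in both libraries, with a median of 7.14 ± 1.39 TPM. Among all 21951 protein-coding genes 46.1% did, the share to set beside this count and those of the lists below. Srrt, which links the cap-binding complex to RNA processing, was highest at 81.1 ± 13.6 TPM, followed by the scaffold protein gene Sympk at 24.8 ± 1.57 and the cleavage endonuclease gene Cpsf3 at 20.8 ± 4.16 TPM. Slbp, the stem-loop binding protein, stood at 12.32 and 8.40 TPM. The lowest was Zfp473, a zinc finger protein of the U7 complex, at 0.33 ± 0.0566 TPM.

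Replication-independent variants can be incorporated outside S phase, and most of their mRNAs are polyadenylated. Their median was 13.5 ± 4.05 TPM. Of 11 genes 10 were detected, led by H3f3b at 279.5 and 174.2 TPM, an H3 variant gene whose level alone exceeded the summed 46.3 and 33.1 TPM of the 10 H3 members. Cenpa, the centromeric H3, stood at 110.3 and 88.1 TPM and the macroH2A gene H2afy at 61.7 and 58.7 TPM. H1fx was lowest, with 0 TPM in both libraries. Of 12 histone chaperones 11 were detected, led by Atrx (109 ± 9.83 TPM), Daxx (23.0 ± 0.0636) and Supt16 (19.5 ± 0.721). Asf1b was lowest at 0.47 ± 0.113 TPM.

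Of 24 S phase and proliferation genes 20 were detected, with a median of 2.73 ± 0.438 TPM, close to the 3.26 ± 1.33 TPM of the 65 histone genes. The replication clamp gene Pcna (28.6 ± 6.43 TPM) and the kinase gene Cdk2 (14.2 ± 0.417) were highest, then the helicase subunit gene Mcm6 (6.84 ± 0.70), and the licensing factor gene Cdc6 was lowest at 0.61 ± 0.141 TPM. In RNA from many cells, few cells in S phase and little RNA in each cannot be told apart. As a check of the cells, all 8 macrophage markers were detected, led by Lyz2 at 1762 ± 773 TPM, and 0 of 4 T cell and 0 of 4 fibroblast markers were in the first estimate. In the second estimate the T cell marker Cd3d stood at 2.53 and 10.1 TPM, against 0 and 0.10 TPM in the first, and the difference was not examined further. Detected members of other lists were 2 of 7 for neutrophils, 1 of 4 for B cells (Ighm) and 1 of 5 for erythroid cells (Alas2), and summed levels of these 5 lists in the first estimate lay between 0 and 8.84 TPM.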

How the data were processed

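Ribosomal RNA-depleted RNA was sequenced in 2 libraries of 1 group. Members, lists and motifs were chosen with earlier results of these data known. Gene and transcript tables with the columns RSEM writes, and a further transcript table with those of kallisto, were deposited per library, per the file headers. For the programs, the strand setting and how reads were divided between copies, nothing is stated in the sources used here. The genome build is mm10, per the labels, and the tables' identifiers are those of GENCODE M21.

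Expected counts were deposited by the authors unscaled, as estimates per gene, per the file headers, and were rounded here for scaling factors alone. TPM values were scaled by the authors across every entry. Interval bounds deposited beside them are a signal on the TPM scale that surrounds a posterior mean, so a TPM can fall outside its own interval.

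Entries naming no gene (1.18% and 0.405% of counts) were left out of library sizes. Of 55536 genes, 55450 were also in the further tables and entered comparisons of the estimates. Annotated counts were 19153465 and 11622346, where a count of 0 allows up to 3 counts, 0.157 and 0.258 CPM. Differences used log2(TPM + 1), which understates changes of low genes. Genes were kept at a mean of 1 TPM or above, in either estimate where estimates were compared. Values in both libraries were given by rule for the 4 highest and the lowest nonzero of each class, all of Hist2, Hist3 and Hist4, the 4 farthest apart in each direction between libraries and between estimates, and any at 0 in 1 estimate and at 1 TPM or more in the other. Of each list the rule took the 3 highest, the lowest and Slbp. Other members are named where a statement turns on them. Windows of 31 bases were compared on both strands with all annotated transcripts. A single library a side allows no p-value. Alternatives were other detection limits, pseudocounts, filters, estimates and scalings (edgeR TMM, DESeq2 size factors), and each library alone. Sums without members of few unique windows, and with other Hist symbols, were added after seeing the data. A log2 difference on CPM was tested on simulated counts, written apart from the code that gave the reported differences. That code itself was not tested. Tools were Python 3.11.15, numpy 2.4.6, pandas 2.3.3, matplotlib 3.10.9, R 4.3.3, edgeR 4.0.16 and DESeq2 1.42.0.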

Additional observations from a re-analysis of the deposited data

How the results depend on the processing

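Given here are sums that moved by over 1 SD, counts by over 1.5 times and log2 medians by over 0.1, and the range over single libraries. A sum in 1 of 2 libraries always lies within 1 SD of their mean, so those ranges are no sign of stability. Sums are means in TPM unless said otherwise. At 5 TPM, 22 members were detected, and with 1 library 46 to 49. Members at 0 were 2 by posterior mean counts under 0.5, and 5 to 10 with 1 library. In the second estimate the sums were 0.0247% of TPM for all members, 30.7 for H1, 58.1 for H2A, 19.5 for H3, 99.2 for H4, 190.6 for Hist1, 34.1 for Hist2 and 20.1 for Hist3. In CPM they were 127.0 for H1, 18.7 for H3, 90.2 for H4, 93.7 for Hist3 and 6.80 for Hist4. With TPM rescaled without the 10 highest genes they were 0.0862% for all, 125.9 for H1, 192.4 for H2A, 115.4 for H2B, 75.6 for H3, 352.3 for H4, 663.1 for Hist1, 116.9 for Hist2, 77.6 for Hist3 and 4.09 for Hist4. Without members overlapping a gene on the same strand, H2A was 59.1 and Hist3 0.115. Added after seeing the data, H3 was 18.0 without members of under 10% unique windows, and H2A was 160.7 and Hist2 125.5 with other coding Hist genes. With each library alone the ranges were 0.0330% to 0.0573% for all, 41.1 to 90.8 for H1, 73.1 to 128.6 for H2A, 42.9 to 78.0 for H2B, 33.1 to 46.3 for H3, 139.7 to 229.8 for H4, 251.4 to 443.8 for Hist1, 46.6 to 76.0 for Hist2, 30.5 to 50.8 for Hist3 and 1.51 to 2.78 for Hist4. The library difference of the members was 0.78 with a pseudocount of 0.1, 0.56 without a filter and 0.22 in the second estimate. The difference between the estimates was -0.89 and -0.77 with pseudocounts of 0.1 and 0.5, -0.51 without a filter, -0.90 at 5 TPM or more, and -0.88 to -0.44 with 1 library. With 1 library the median over all genes was -0.38 in replicate 1 and 0.12 in replicate 2. Beyond what these settings change by construction, the cause was not tested. Depth limits members near 1 TPM, whose values rest on few counts. No paired analysis was possible because the series has 1 group.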

Other observations

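The naming rule leaves out 5 genes whose symbol starts like those of the members but ends in a digit or a suffix. Hist2h2aa2 stood at 77.04 and 19.09 TPM, above every member in replicate 1, and at 26.8 and 13.1 TPM in the second quantification. Hist2h2aa1 stood at 12.88 and 10.79 TPM and Hist2h3c2 at 5.20 and 3.41 TPM. Hist2h3c1 was at 0 and 0.01 TPM, and the processed pseudogene Hist3h2bb-ps at 0.93 and 0.55 TPM. With the coding genes among them, the H2A sum was 218.5 and 103.0 TPM, and it then lay below the H4 sum in each library. The ranges of the 2 classes then overlapped, because the lower H4 sum was 139.7 TPM.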
